A study of Sus scrofa with 59 samples.

Results

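The 41 genes described here are the translation initiation and elongation factors that the porcine array measured in the back muscle of 59 pigs. They were chosen by name, with earlier results of these data known. Every gene whose symbol in the platform annotation starts with EIF or EEF was taken, apart from EIF1AY, and each gene was represented by its probe set with the highest mean over the 59 arrays. The 41 genes are part of 6765 genes with a symbol on the array, and all 41 passed the filter on dim signals that left 4928 genes to be tested. They comprise 31 initiation genes, 5 elongation genes (EEF1A1, EEF1B2, EEF1D, EEF1G and EIF5A), 1 binding protein (EIF4EBP2), 2 enzymes that modify the factors (EIF2AK2 and EEF1AKMT1) and 2 genes with a factor's name but another main role (EIF4A3 and EEF1E1). A further 6 probe sets whose annotation joins a factor with another symbol were left out.

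The muscle was longissimus dorsi, the long muscle of the loin, from pigs of an LD/LW x Duroc cross aged 170 days. The pigs had been reared on 1 farm with free access to feed, and the muscle was frozen at slaughter and hybridised with 1 Affymetrix array per pig. Everything was sampled after slaughter, no pig was treated, and the 59 pigs form 1 group that the study set against 33 traits of composition and meat quality. Trait values, sex and array batch of the single pigs were not analysed here, so the comparisons below ask which factors varied between pigs and with which other genes they varied.

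Translation of an mRNA begins when initiation factors bring the small ribosomal subunit, the initiator tRNA and the capped 5′ end of the mRNA together. Elongation factors then carry each aminoacyl-tRNA to the ribosome and move it along, while binding proteins such as EIF4EBP2 hold the cap-binding factor EIF4E away from its partner EIF4G1 until they are phosphorylated by mTORC1. In mammals the mRNAs of ribosomal proteins and of several translation factors carry a 5′ terminal oligopyrimidine tract, through which mTORC1 sets their translation together, and skeletal muscle adjusts these genes to feeding, growth and stress.

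Values were read as log2 signals, ran from 2.39 to 15.04, and had array medians from 6.23 to 6.30. The 9 measured genes that define skeletal muscle had pig means from 14.26 to 14.40, so every sample carried its labelled tissue. The mean difference between the 3′ and the 5′ control probe sets for actin and GAPDH, a measure of RNA integrity and labelling, ran from 0.72 over a median of 0.88 to 1.40 (log2). Pig 41 held the highest difference and stood apart, with the next pig at 1.21. Because these are whole-muscle samples, fewer cells of a type and less RNA per cell cannot be told apart. No molecules were counted, and the number of arrays limits the precision.

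The factors varied less between pigs than most genes did, and the differences among them were large. The SD over the 59 pigs had a median of 0.147 log2 over the 41 factors and of 0.197 over all 4928 genes, as a description. EIF4E, the protein that binds the mRNA cap, had the widest spread of the factors, at 8.31 in the lowest pig, 9.12 in the median pig and 10.61 in the highest (SD 0.55, n = 59). EIF2AK2, a kinase that double-stranded RNA switches on and that phosphorylates the alpha subunit of eIF2, followed with 6.39, 7.55 and 8.48 in the lowest, median and highest pig (SD 0.39, n = 59).

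EEF1E1, an accessory protein of the multisynthetase complex, had an SD of 0.35, and EEF1A1, the factor that delivers aminoacyl-tRNA, one of 0.34. The EEF1A1 value is uncertain, since it comes from an array control probe set in the middle of the transcript. The controls for its 3′ and 5′ ends had SDs of 0.19 and 0.52. The brightest EEF1A1 probe set that is no control had an SD of 0.16. EIF4A1, EIF3B, EIF4H and EIF4G1, which are RNA helicase, scaffold or helper factors of the cap and small-subunit complexes, came next in spread with SDs of 0.33, 0.32, 0.30 and 0.29. EIF4H is uncertain, since its second probe set correlated with the first at −0.257, and so is EIF4E2, a cap-binding paralogue whose other probe sets did so at 0.140 and 0.089. At the other end stood EEF1B2, EIF4A2, EEF1G and EIF1, whose SDs lay between 0.05 and 0.06. The 5 factors with a mean of 13 or more, namely these 4 and EIF4G2, all had an SD of 0.12 or less. Muscle genes with means above 13 had SDs from 0.03 (TNNC2) to 0.16 (MYH7). Whether signals near the top of the range are compressed was not tested. A small SD in these 5 genes is therefore not read as a steady mRNA level. Levels of different genes cannot be ranked because each probe set has its own response.

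**Figure D1:**
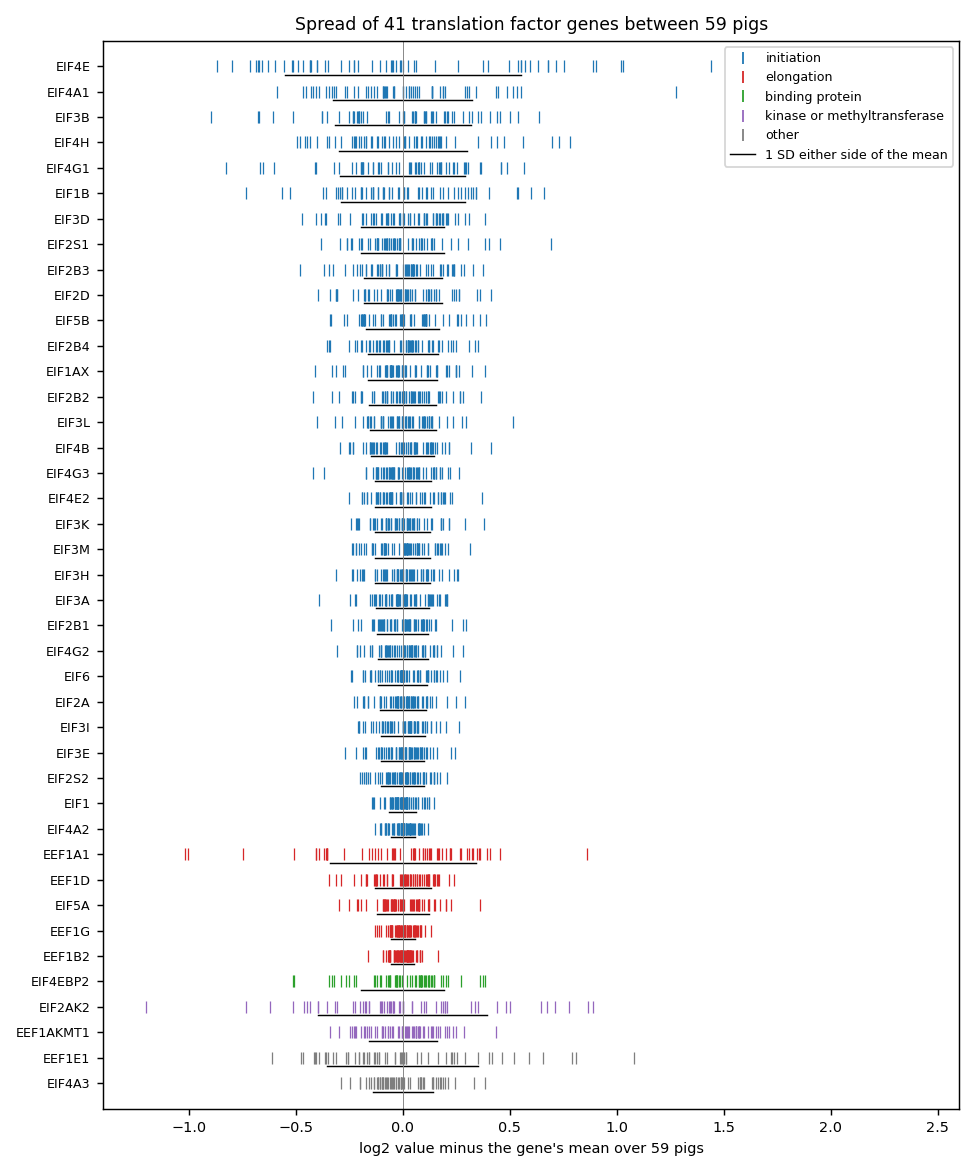
Spread of the 41 factors between the pigs, grouped by role; each tick is 1 pig, placed by its log2 value minus the gene's mean over 59 pigs on the horizontal axis, and the black bar spans 1 SD either side of that mean. EIF4E spans the widest range, from 8.31 to 10.61 in log2 value, and EEF1B2 one of the narrowest, from 13.71 to 14.03.

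The first comparison asked which factors rise or fall with the ribosomal protein mRNAs between pigs. The ribosomal protein score was the mean of 56 standardised ribosomal protein genes, and the mean log2 signal of those genes ran from 13.27 to 13.48 over the pigs. With limma, 9 of the 41 factors rose and 1 fell with the score at a Benjamini-Hochberg adjusted p under 0.05. Over all 4872 genes in the same fit 5.83% rose and 3.94% fell, which were 284 and 192 genes, and re-centring each array on its own median gave 920 and 349. The 9 that rose comprised 6 of 31 initiation genes, 2 of 5 elongation genes and the methyltransferase EEF1AKMT1, and EIF4EBP2 passed in neither direction. Differences between these classes were not tested. The median slope was −0.002 log2 per SD of score over the 41 factors and 0.002 over all genes.

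Among the elongation genes, EEF1B2 and EEF1D, which encode the nucleotide exchange subunits that recharge eEF1A with GTP, rose with the ribosomal proteins. EEF1B2 had 13.71 in the lowest pig, 13.87 in the median pig and 14.03 in the highest. Its slope was 0.041 ± 0.0074 log2 per SD of score (SE, limma adjusted p = 0.000188), with a Pearson r of 0.759, the highest of the 41. The pigs low in EEF1B2 were mostly those low in the score, and the change was small in absolute size because the whole range covers 0.33 log2 units on a bright probe set.

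EEF1D had 11.46, 11.82 and 12.04 in the lowest, median and highest pig and a slope of 0.064 ± 0.016 (limma adjusted p = 0.00711). EEF1G, the scaffold subunit of the same exchange complex, had a slope of 0.009 ± 0.0093 (limma adjusted p = 0.563) and so passed in neither direction. EIF5A, which relieves ribosomes that stall on difficult sequences, had one of −0.011 ± 0.017 (limma adjusted p = 0.71).

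Among the initiation genes, 3 subunits of eIF3, the largest initiation complex and the one that holds the small ribosomal subunit, rose with almost the same slope. EIF3E had 11.88 in the lowest pig, 12.16 in the median pig and 12.39 in the highest, and its slope was 0.074 ± 0.011 (limma adjusted p = 8.2e-06, r = 0.731). EIF3H had 11.81, 12.12 and 12.38 and a slope of 0.075 ± 0.015 (limma adjusted p = 0.000647). EIF3K had 11.74, 11.98 and 12.36 and a slope of 0.075 ± 0.015 (limma adjusted p = 0.00068). Leaving out any single pig kept all of these calls, with adjusted p of at most 0.00224.

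EIF4B, an RNA-binding cofactor of the eIF4A helicase, ran from 10.19 over 10.49 to 10.89 and rose by 0.084 ± 0.017 per SD (limma adjusted p = 0.000733). A second EIF4B probe set correlated with it at only 0.264 and had a slope of −0.0004 ± 0.027 (limma adjusted p = 0.996), and the mean of both had an adjusted p of 0.0686. EIF2A, an alternative carrier of the initiator tRNA, ran from 10.98 over 11.21 to 11.50 and rose by 0.056 ± 0.013 (limma adjusted p = 0.00473). Its second probe set, with a correlation of 0.270 to the first, had a slope of 0.033 ± 0.022 (limma adjusted p = 0.35). EEF1AKMT1, which methylates a lysine of eEF1A, ran from 10.34 over 10.69 to 11.11 and had a slope of 0.088 ± 0.018 (limma adjusted p = 0.000991). Its second probe set, which correlated with the first at 0.703, had one of 0.045 ± 0.018 (limma adjusted p = 0.0896). These 3 genes thus passed on the probe set that stands for them and not on the other.

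EIF2B2, a subunit of the exchange factor that reloads eIF2 with GTP, ran from 9.28 over 9.71 to 10.06 and had a slope of 0.066 ± 0.019 (limma adjusted p = 0.0209). Pig 72, the lowest in EIF2B2, carried that call: without it the slope was 0.055 and the adjusted p 0.06. EIF4G1, the scaffold that links the cap-binding factor to eIF3, was the only factor that fell. It had 9.06 in the lowest pig, 9.93 in the median pig and 10.46 in the highest, and a slope of −0.123 ± 0.035 (limma adjusted p = 0.0166). Without pig 57, the highest in the score, its slope was −0.099 with an adjusted p of 0.0653. EIF4G1 also fell with the control difference described below, and with that difference as a covariate its slope was −0.083 (limma adjusted p = 0.0826).

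Several values moved with the ribosomal protein score beside the factors. Of 3 measured red blood cell markers, HBB passed the filter and rose with the score (slope 0.097 ± 0.024, limma adjusted p = 0.00595, r = 0.480), while ALAS2 and AHSP were dim and had r of 0.118 and 0.169. The mean level of the markers per pig, here HBB alone, ran from 8.47 to 9.41. Endothelial, leukocyte, adipocyte, and smooth muscle and pericyte markers had 0 calls in 4, 6, 4 and 5 tested genes by limma. Of 9 muscle genes 0 rose and 1 fell, MYH7, the slow fibre myosin, with a slope of −0.062 ± 0.020 (limma adjusted p = 0.0381, r = −0.384). The control difference had an r of 0.262 with the score, and with it as a covariate 9 factors still rose and 0 fell. Over all 4872 genes 227 rose and 165 fell in that fit. The parts of red blood cell RNA and of fibre type in the rise of the 9 factors were not tested.

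The other genes of protein synthesis, listed by function, divided on the same score. Of 13 tested translation genes without an EIF or EEF name, 4 rose and 0 fell. They were BTF3, part of the nascent polypeptide complex (0.054 ± 0.0095, limma adjusted p = 0.000154), PAIP1, a partner of poly(A)-binding protein (0.091 ± 0.02), RACK1, a protein of the small ribosomal subunit (0.041 ± 0.011), and the nucleolar protein NPM1 (0.049 ± 0.014). Of 17 aminoacyl-tRNA synthetase genes 0 rose and 2 fell, AARS1 by 0.118 and FARSA by 0.069 log2 per SD. Of 7 mitochondrial translation factors 0 rose and 2 fell, TUFM by 0.092 and GFM1 by 0.099. The 16 tested genes of the mTORC1 pathway gave 1 call in each direction, LAMTOR4 at 0.078 and MKNK1 at −0.089. Of 49 oxidative phosphorylation genes 1 rose and 15 fell.

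The second comparison set the factors against heat shock genes, with a score over 21 chaperone and heat shock genes. This list was chosen because heat shock expression had followed the largest common component of these arrays in earlier results. Mean log2 signals of the list ran from 11.07 to 12.61 over the pigs, and the score correlated at 0.833 with the first principal component of the array, which held 19.9% of the variance. In this comparison 16 of the 41 factors rose and 3 fell with limma, while 24.4% of all 4907 genes rose and 21.7% fell. The 16 comprised 14 of 31 initiation genes together with EIF4A3 and EEF1E1, and 0 of 5 elongation genes passed in either direction by limma. At an unadjusted p under 0.05 limma gave EIF5A alone of those 5, with a slope of −0.036 ± 0.016 and an unadjusted p of 0.026. EIF5A passed as falling when any 1 of 10 pigs was left out. It also did so in the fit of both scores described below (slope −0.038, limma adjusted p = 0.0465). The 0 of 5 also rests on the array control probe set for EEF1A1: both other tested EEF1A1 probe sets fell with heat shock, by 0.119 and 0.077 log2 per SD (limma adjusted p of 3.61e-09 and 0.000184). The median slope was 0.020 over the factors and −0.005 over all genes.

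Markers of other cell types moved with the heat shock score as well. Of 4 adipocyte markers 0 rose and 2 fell, CFD by 0.096 and CIDEA by 0.199, and the list's pig means ran from 8.08 to 9.08. Of 6 leukocyte markers CD163 rose by 0.174 and C1QA fell by 0.082, with pig means from 6.25 to 8.15. Of 9 muscle genes DES rose by 0.066, and of 11 interferon response genes 0 rose and 2 fell, while endothelial, red blood cell, and smooth muscle and pericyte markers had 0 calls in 4, 1 and 5 by limma. The part of these cell types in the calls of the factors was not tested.

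EIF4E had the steepest slope of the 41 factors. It rose by 0.449 ± 0.042 log2 per SD of score (limma adjusted p = 2.19e-13, r = 0.814), and pig 36, the highest in the score, was also the highest in EIF4E at 10.61. EIF4A1, the helicase that unwinds the 5′ leader, had 9.43, 9.98 and 11.29 in the lowest, median and highest pig and rose by 0.172 ± 0.036 (limma adjusted p = 8.06e-05). Pig 36 again was highest, with the next pig at 10.57, and without it the slope was 0.119 (limma adjusted p = 0.003). EIF4A2, its paralogue, had a slope of 0.018 ± 0.009 (limma adjusted p = 0.102), on a bright probe set. EIF4G1 had a slope of 0.059 and did not pass.

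EIF2S1, EIF5B and EIF1B, of the ternary-complex, subunit-joining and start-codon steps, rose too. EIF2S1, the alpha subunit of eIF2 that carries the regulatory phosphorylation site, had 10.42, 10.76 and 11.49 and a slope of 0.137 ± 0.018 (limma adjusted p = 1.36e-08). EIF2S2, the beta subunit, had a slope of 0.022 ± 0.014 and did not pass (limma adjusted p = 0.201). EIF5B, the GTPase that joins the large subunit, had 9.88, 10.22 and 10.61 and one of 0.132 ± 0.015 (limma adjusted p = 2.51e-10). EIF5B's other tested probe set correlated with this one at 0.155 and had a slope of 0.012 ± 0.016 (limma adjusted p = 0.548), so the call rests on 1 probe set. EIF1B, a paralogue of the start-codon factor EIF1, had 11.10, 11.81 and 12.49 and a slope of 0.209 ± 0.026 (limma adjusted p = 2.19e-09). EIF1 itself, on a bright probe set, had one of −0.006 ± 0.0099 (limma adjusted p = 0.666).

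EEF1E1 had 8.67, 9.21 and 10.36 and rose by 0.229 ± 0.035 (limma adjusted p = 2.49e-07). Its second probe set followed the first at 0.921 and rose by 0.167 ± 0.034 (limma adjusted p = 6.68e-05). EIF4A3, the helicase that anchors the exon junction complex, rose by 0.101 ± 0.014. The other risers, named after their values were seen, were EIF3B (0.144), EIF2B4 (0.118), EIF3D (0.088), EIF3M (0.078), EIF3A (0.069), EIF4G2 (0.058), EIF1AX (0.053), EIF4B (0.053) and EIF6 (0.049), the last of which keeps the ribosomal subunits apart. EIF3M is uncertain, since its second probe set correlated with the first at −0.210 and had a slope of −0.037 ± 0.035. The EIF1AX call was lost without any 1 of pigs 36, 48 and 74, with a limma adjusted p of up to 0.0791.

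EIF4EBP2, the only binding protein measured by a probe set of its own, fell with the heat shock score. It had 10.53, 11.08 and 11.43 in the lowest, median and highest pig and a slope of −0.067 ± 0.024 (limma adjusted p = 0.0197). Without pig 36 the slope was −0.045 and the adjusted p 0.117, and without pig 5 they were −0.054 and 0.0526. The other tested EIF4EBP2 probe sets had slopes of −0.059 ± 0.025, 0.039 ± 0.020 and 0.088 ± 0.022, with limma adjusted p of 0.0517, 0.118 and 0.00101. They correlated with the first at 0.851, 0.343 and −0.183, so the direction of EIF4EBP2 depends on the probe set. EIF2B2 fell by 0.088 log2 per SD (SE 0.018, limma adjusted p = 5.16e-05). EIF3H fell by 0.043 (SE 0.017, limma adjusted p = 0.0315), a call lost without any 1 of pigs 5, 9, 30, 36 and 52, with slopes from −0.039 to −0.034 there.

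The heat shock calls moved with the first component. With that component as a covariate 5 factors rose and 0 fell by limma, while over all 4907 genes 188 rose and 112 fell. EIF3B was the only one of the 19 calls that passed under each of 7 alternatives, with a limma adjusted p of at most 0.0271. Beside EIF3B, the 4 that rose with the component as covariate, named after their values were seen, were EIF2B1, EIF4G3, EIF4B and EEF1D. EIF4E had a slope of 0.173 (limma adjusted p = 0.0831) and EIF2S1 one of −0.009 (limma adjusted p = 0.884) there. The score and the component share most of their variance, and their parts in the 19 calls cannot be told apart here.

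**Figure D2:**
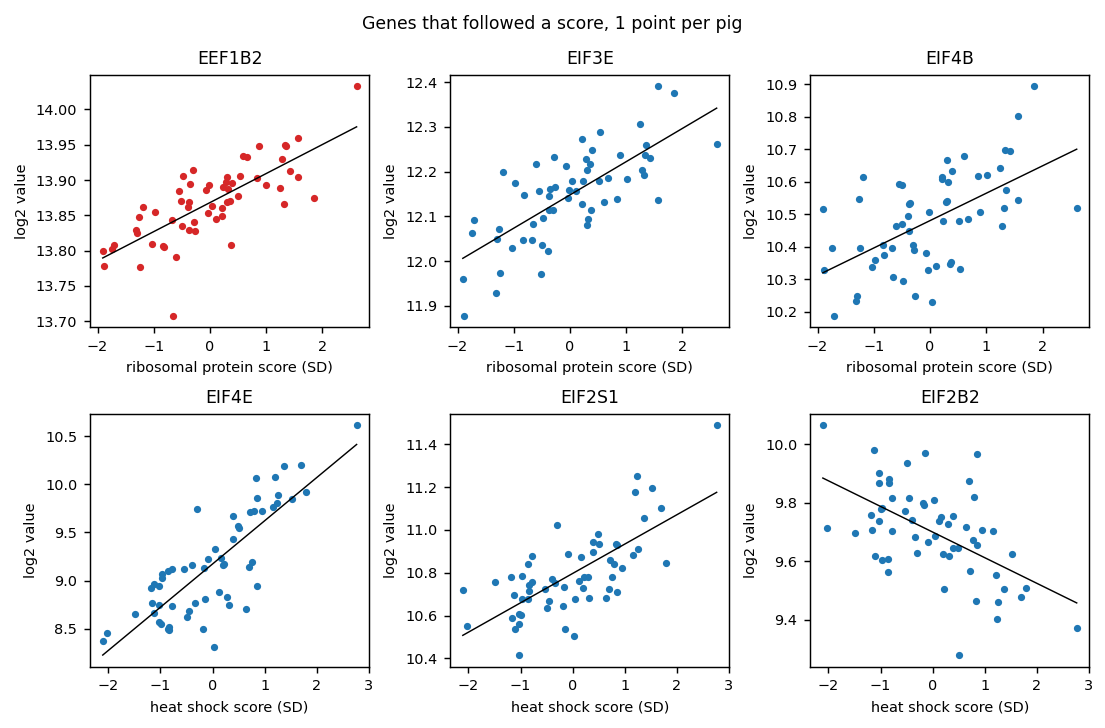
Log2 value of 6 factors on the vertical axis against the ribosomal protein score (upper row) or the heat shock score (lower row) in SD units, with 1 point per pig and a least-squares line. EEF1B2, EIF3E and EIF4B rise along the ribosomal protein score by 0.041, 0.074 and 0.084 log2 per SD, EIF4E and EIF2S1 rise along the heat shock score by 0.449 and 0.137, and EIF2B2 falls by 0.088.

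The 9 factors that rose with the ribosomal proteins and the 16 that rose with heat shock genes shared 1 gene, EIF4B. The 2 scores correlated at −0.111 over the pigs. EIF4B's place in both rests on 1 probe set: the second had a slope of 0.007 ± 0.027 on heat shock (limma adjusted p = 0.844), and the mean of both one of 0.029 (limma adjusted p = 0.196). In a fit of both scores together, added after the data had been seen, the slope on the ribosomal protein score exceeded that on the heat shock score in 8 factors and was below it in 14 by limma, while over 4851 genes 20.5% and 21.7% did so. The 8 are 19.5% of the factors and the 14 are 34.1%, so the share above 0 was near that of all genes. The 8 were EIF3E, EIF3H, EIF3K, EEF1B2, EEF1D, EIF2A, EIF2B2 and EEF1AKMT1. EIF2B2 and EIF3H moved in opposite directions on the 2 scores in that fit, EIF2B2 with 0.057 on ribosomal proteins and −0.081 on heat shock and EIF3H with 0.071 and −0.035. Opposite calls were thus made in 4.88% of factors and 3.2% of all genes, and calls in 1 direction on both scores in 2.44% and 1.69%, shares that are close. EIF4B had 0.091 and 0.063, and the difference of its slopes was 0.028 ± 0.020 (limma adjusted p = 0.253).

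**Figure D3:**
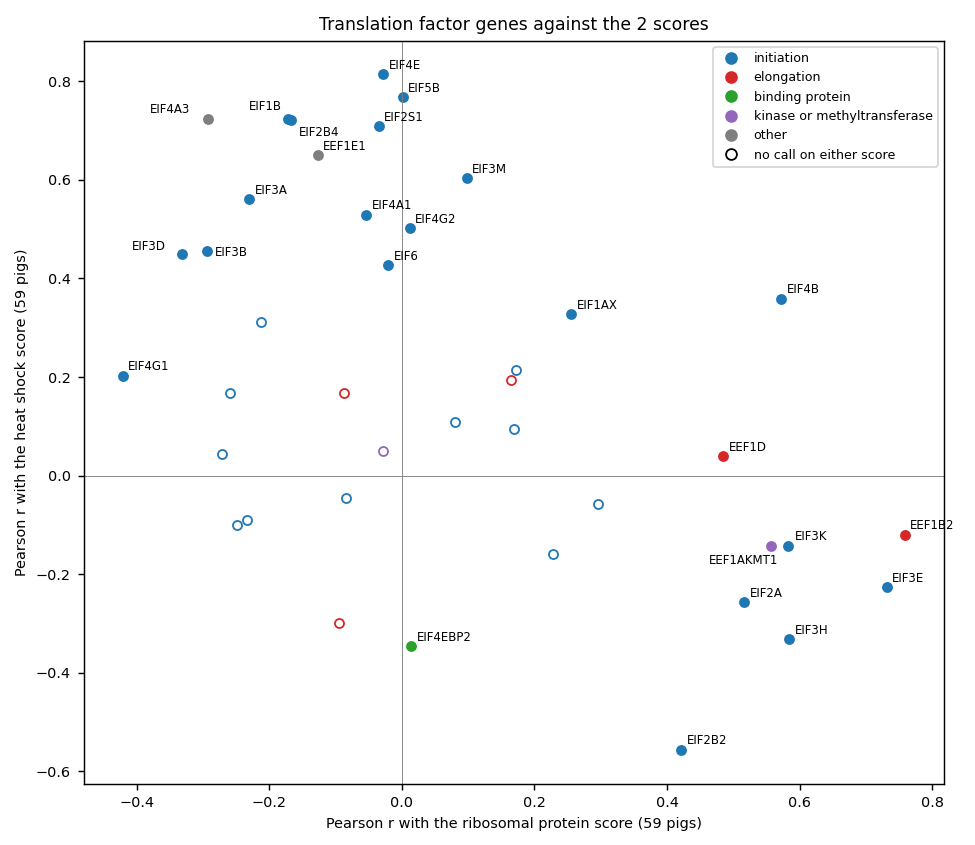
Pearson r of each of the 41 factors over 59 pigs with the ribosomal protein score (horizontal) and with the heat shock score (vertical), coloured by role; open points passed limma on neither score. EEF1B2 (0.759) and EIF3E (0.731) lie at the right, EIF4E (0.814) at the top, and EIF4B lies at the upper right on the probe set that represents it.

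Subunits of 1 complex did not all vary together. The median pairwise r was 0.677 among EIF3E, EIF3H and EIF3K and 0.334 among EIF3A, EIF3B, EIF3D and EIF3M, against −0.192 between these sets. The sets were formed from the slopes above, so these values are descriptions only. With the first component removed the 3 medians were 0.621, 0.15 and −0.024, and with probe sets averaged the second was 0.116. Over all 36 pairs of the 9 measured eIF3 subunits the median was 0.098. In eIF2B the 6 pairs among EIF2B1, EIF2B2, EIF2B3 and EIF2B4 ran from −0.299 to 0.425 with a median of 0.199, and EIF2B2 and EIF2B4 had opposite directions on the heat shock score. With the first component removed these 6 pairs ran from 0.138 to 0.453 with a median of 0.373. With that component as covariate the heat shock slopes of EIF2B2 and EIF2B4 were 0.019 and 0.081, and neither passed (limma adjusted p of 0.748 and 0.0675).

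Over all 820 pairs of factors the median r was 0.063, against 0.006 over pairs of all 4928 genes. It was 0.096 among the 31 initiation genes, 0.156 among the 5 elongation genes and 0.061 between these classes, while EIF4EBP2 had a median of −0.123 with the initiation genes. The highest values, seen in EIF3D with EIF4G1 (0.855), EEF1E1 with EIF2S1 (0.852) and EIF2S1 with EIF4E (0.837), joined genes of different complexes. EIF3B with EIF4G1 (0.789) and EIF3B with EIF3D (0.776) came next, and the latter pair lies within eIF3. EIF3B, EIF3D and EIF4G1 also fell with the control difference described below. The lowest were those of EIF2B2 with EIF3A (−0.693) and EIF4E (−0.674). EIF4EBP2 had −0.613 with EEF1E1 and −0.585 with EIF4A1. These correlations share arrays and normalisation, and no p is attached to them.

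**Figure D4:**
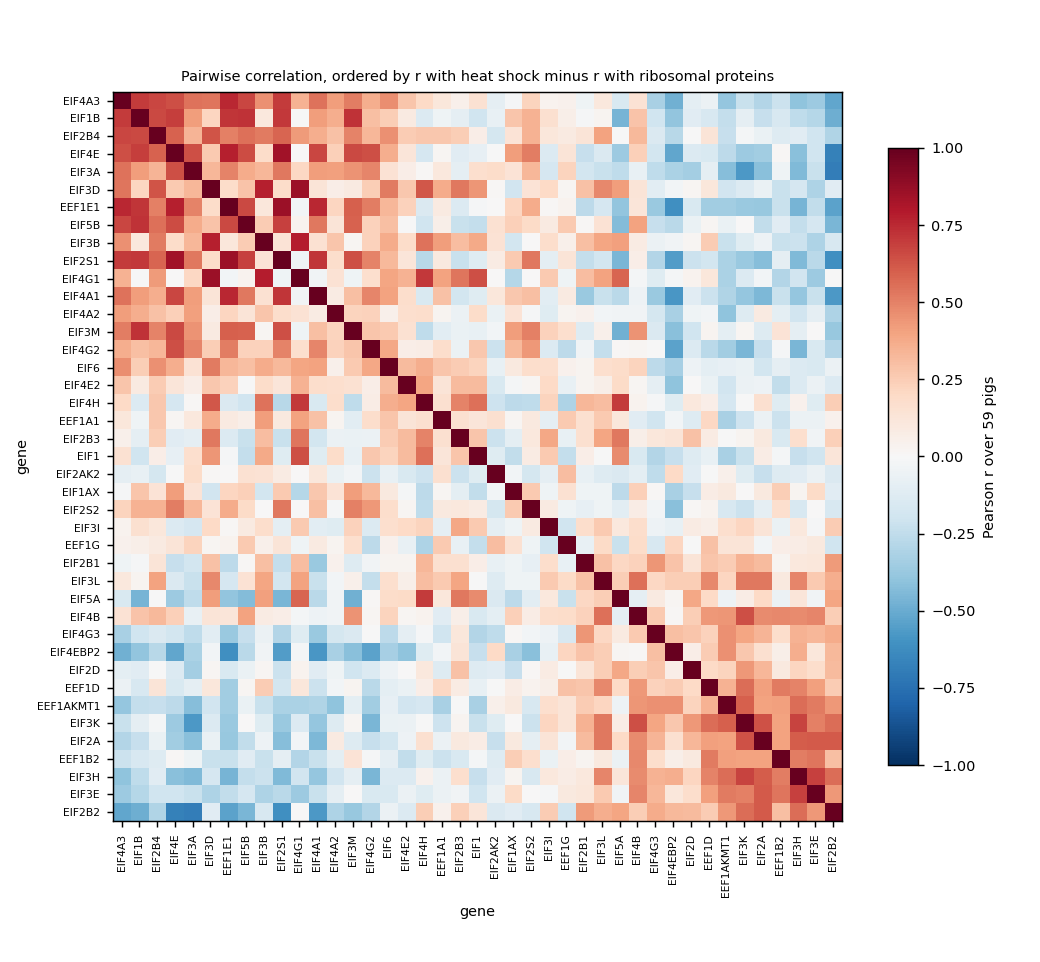
Pearson r over 59 pigs for every pair of the 41 factors, on a colour scale from −1 (blue) to 1 (red), with the genes ordered by their r with the heat shock score minus their r with the ribosomal protein score. A red block of heat shock followers at the upper left and a smaller red block of ribosomal protein followers at the lower right face each other across blue corners, with medians of 0.379, 0.492 and −0.218 for the pairs within and between those followers. The gene order itself groups the followers, and with the first component removed the 3 medians were 0.042, 0.478 and 0.063.

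Pairs of partners or paralogues were tested next, 8 pairs of the 16 that had been listed, with permutation tests of 100000 resamples adjusted over the 8. EIF3E and EIF3H correlated at r = 0.685 (permutation p = 1e-05, the smallest that these resamples can give, adjusted p = 8e-05) with a Spearman rho of 0.67 (permutation p = 1e-05, adjusted 4e-05). EIF2S1 and EIF2S2, the alpha and beta subunits of eIF2, correlated at r = 0.53 (permutation p = 2e-05, adjusted p = 8e-05) with a rho of 0.599 (permutation p = 1e-05, adjusted 4e-05). When the 2 pigs with the most extreme values of the first gene were left out, the r values were 0.662 and 0.589. Both pairs also passed given the first component, at r of 0.623 and 0.541.

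The other 6 pairs did not pass on Pearson's r. EEF1G and EEF1D came nearest, with an r of 0.293 (permutation p = 0.0241, adjusted p = 0.0643) and a rho of 0.328 (permutation p = 0.0115, adjusted p = 0.0306), and their r was 0.321 without the 2 farthest pigs (adjusted p = 0.0394). EEF1A1 and EEF1B2 had an r of −0.211 (permutation p = 0.108, adjusted 0.216) and a rho of −0.058 (permutation p = 0.661, adjusted 0.756), and without pig 57 the r was −0.063. EEF1B2 and EEF1G had an r of 0.068 (permutation p = 0.611, adjusted 0.698) and a rho of 0.148 (permutation p = 0.262, adjusted 0.524), and without pig 57 the r was 0.197. The helicase paralogues EIF4A1 and EIF4A2 had an r of 0.079 (permutation p = 0.556, adjusted 0.698) and a rho of 0.073 (permutation p = 0.582, adjusted 0.756). EIF4E and EIF4G1, which bind each other at the cap, had an r of 0.007 (permutation p = 0.96, also after adjustment) and a rho of 0.001 (permutation p = 0.993, also after adjustment). EIF3D and EIF3M had an r of 0.088 (permutation p = 0.506, adjusted 0.698) and a rho of 0.081 (permutation p = 0.539, adjusted 0.756). Without the 2 farthest pigs these last 5 pairs had r of −0.039, 0.195, 0.021, 0.033 and 0.076 in the order given.

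Against the oxidative phosphorylation score, the mean of 49 standardised genes of the respiratory chain, 0 factors rose and 2 fell by limma, and 9.06% of 4879 genes rose and 2.77% fell. Both were elongation genes. EEF1A1 had 11.79 in the lowest pig, 12.87 in the median pig and 13.67 in the highest, and fell by 0.186 log2 per SD (SE 0.037, limma adjusted p = 0.00028). Pig 36 was highest in EEF1A1 and lowest in this score, and without it the slope was −0.158 with an adjusted p of 0.00236. EEF1D fell by 0.053 (SE 0.017, limma adjusted p = 0.0319), a call lost without any 1 of pigs 21, 41, 42 and 59, where the adjusted p was 0.0839, 0.0674, 0.0595 and 0.0762. The 3 other elongation genes had slopes between −0.033 and −0.006, led by EIF5A at −0.033 with an unadjusted limma p of 0.043 (adjusted p = 0.215).

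EEF1A1 was represented by an array control probe set, which sits in the middle of the transcript, and this bears on its values. The 3′ minus 5′ difference of the EEF1A1 controls themselves ran from 1.28 over 1.82 to 3.72, highest again in pig 41, and the representing probe set correlated at −0.811 with it. Of the EEF1A1 probe sets that are no controls, a dim one below the filter correlated with the representing one at 0.702. Another, with a mean of 7.22, did so at 0.056. The brightest of them had a mean of 9.20 and correlated with the representing one at −0.046. Its slopes were −0.006 ± 0.022 on oxidative phosphorylation (limma adjusted p = 0.913), 0.026 ± 0.021 on ribosomal proteins (limma adjusted p = 0.463) and −0.119 ± 0.015 on heat shock (limma adjusted p = 3.61e-09). The fall of EEF1A1 with oxidative phosphorylation was thus seen on the control probe set and not on this one, and the fall with heat shock the other way round. On heat shock the control probe set had a slope of 0.058 ± 0.044 (limma adjusted p = 0.286).

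With the 3′ minus 5′ difference of the actin and GAPDH controls, 0 factors rose and 7 fell by limma, while 3.21% of 4928 genes rose and 3.98% fell, or 158 and 196 genes (98 and 257 after re-centring). Per SD, EIF3B fell by 0.177, EIF4G1 by 0.176, EEF1A1 by 0.167, EIF3D by 0.098, EIF3L by 0.084, EIF2B4 by 0.063 and EEF1D by 0.053, with limma adjusted p from 2.28e-05 to 0.0341. Pig 41 was the lowest of the 59 in EIF3B, EIF4G1, EIF3D and EEF1D. Without it the slope of EEF1A1 was −0.109 (limma adjusted p = 0.0585) and that of EEF1D −0.032 (limma adjusted p = 0.217), while EIF3B, EIF4G1, EIF3D and EIF3L passed with slopes of −0.133, −0.138, −0.076 and −0.089 and limma adjusted p of at most 0.0213. EIF3I, which did not pass over all 59 pigs, fell without pig 41 (limma adjusted p = 0.0103). EEF1D also lost its call without pig 42 or 49, and EIF2B4 without any 1 of pigs 38, 47, 48 and 57, where its adjusted p reached 0.0802. With this difference as a covariate 16 factors rose and 4 fell with heat shock, while over all 4907 genes 1229 rose and 1067 fell.

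EIF2AK2 went with the interferon genes, a list added after its wide spread had been seen. It was the only factor that rose with the score of 11 interferon response genes by limma, and 0 fell, while 1.59% of 4917 genes rose and 0.508% fell, or 78 and 25 genes (93 and 108 after re-centring). Its slope was 0.269 ± 0.037 log2 per SD (limma adjusted p = 8.07e-07, r = 0.683), and it was called under each of 7 alternatives and without any single pig. Of the 4 pigs highest in the score, pigs 60, 63 and 14 had 8.46, 8.48 and 8.31 in EIF2AK2, but pig 41, the second highest in the score, had 7.64, close to the median. The lowest pig in EIF2AK2, 35, lay 0.47 below the next. On ribosomal proteins and heat shock its slopes were −0.011 ± 0.051 and 0.020 ± 0.051 (limma adjusted p of 0.921 and 0.777). Of 6 leukocyte markers 3 rose with the interferon score, CD14 and PTPRC of the same list were below the filter, the tested markers' pig means ran from 6.25 to 8.15, and their part in the result was not tested.

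**Figure D5:**
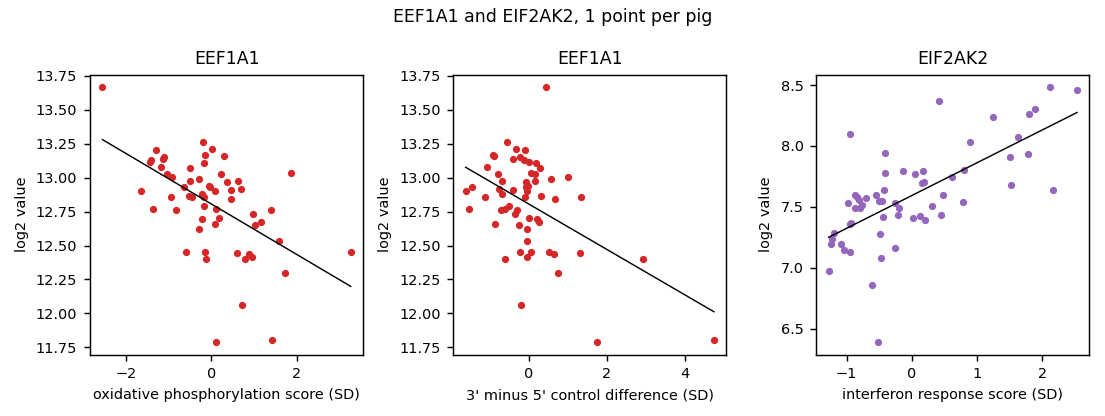
Log2 value of EEF1A1 (left and middle) and EIF2AK2 (right) on the vertical axis against the named score in SD units, with 1 point per pig and a least-squares line. EEF1A1 falls by 0.186 log2 per SD of the oxidative phosphorylation score and by 0.167 per SD of the control difference, where pig 41 lies alone at the right, and EIF2AK2 rises by 0.269 per SD of the interferon score.

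Over the 5 scores 29 of the 41 factors passed the threshold at least once and 12 on none. How many of all genes did so was not counted, but heat shock alone gave rises in 24.4% of them and falls in 21.7%. The 29 and the 12 are therefore a list only and are not read as a property of the factors. The 12 were EEF1G, EIF5A, EIF1, EIF2B1, EIF2B3, EIF2D, EIF2S2, EIF3I, EIF4A2, EIF4E2, EIF4G3 and EIF4H. On the probe sets that represent them their smallest limma adjusted p was 0.0569, for EIF5A on the heat shock score. Other probe sets of these genes passed in 2 instances. EIF5A's second probe set, which correlated with the first at 0.390, fell by 0.138 per SD of the control difference (SE 0.018, limma adjusted p = 6.36e-08) and had a slope of 0.033 ± 0.025 on heat shock, opposite in sign to the first. Another EIF4E2 probe set rose with heat shock by 0.053 ± 0.021 (limma adjusted p = 0.0333). EEF1G, EIF1 and EIF4A2 among them lie on bright probe sets, and whether compression had a part there was not tested. EIF2B3, EIF4E2 and EIF2D had lower means of 7.33, 7.56 and 7.61, with SDs of 0.18, 0.13 and 0.18. EIF2AK2 had a mean of 7.59 and an SD of 0.39, but each probe set has its own response. Whether compression of dim signals had a part in the missing calls of EIF2B3, EIF4E2 and EIF2D was not tested.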

How the data were processed

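Total RNA from 59 muscles was labelled with biotin and hybridised to 1 array each, per the labels' protocols. The deposited table holds the authors' normalised value per probe set, made with GCRMA per the submitters' processing notes, version not given in the sources used here. GCRMA corrects background by probe sequence and normalises arrays by quantiles, which compresses dim signals. The deposited values were read as log2 from their range, as no log base was stated.

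Of 24123 probe sets, 124 are controls, and the platform annotation gave 1 symbol for 10099, several for 198 and none for 13826, with 9989 symbols updated by Entrez identifier. Probe sets with a mean of at least 6.27, the median of all means, were tested, 12001 in all. The EEF1A1 control probe set was kept because it had the highest mean of the probe sets annotated to EEF1A1. The control for the 3′ end was brighter, with a mean of 13.69, but was not among those. A score was the mean of a list's standardised genes, scaled to an SD of 1. Slopes per SD were fitted with limma 3.58.1 (lmFit and eBayes) in R 4.3.3 over all tested probe sets but the score's own, with Benjamini-Hochberg adjustment and a threshold of 0.05. Pairs were tested with two-sided permutation tests in Python 3.11.15 with scipy 1.17.1, numpy 2.4.6 and pandas 2.3.3. Figures used matplotlib 3.10.9. The fits and pair tests were tested on simulated data.

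All pigs form 1 group, and the pig number only names an array. The labels name no litter or repeat sample, and no 2 arrays held identical values.

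The members and lists were chosen with earlier results of these data known. Named genes were all elongation and binding-protein genes, those with the highest and lowest means and SDs, members of the pairs, members whose probe sets disagreed (r under 0.3), and those with the largest slopes past the threshold on each score. Members named beyond this rule were chosen after their values were seen. Alternatives were no filter, arrays re-centred on their median, leaving out the 2 farthest pigs, the first principal component or the control difference as covariate, averaging a gene's probe sets, and a list's first component as score. Added after seeing the data were the interferon score, both scores in 1 fit, each pig left out in turn, and the other EEF1A1 probe set.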

Additional observations from a re-analysis of the deposited data

How the results depend on the processing

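No paired analysis was possible because the 59 pigs form 1 group. For the ribosomal protein score, the 1 factor that fell became 3 after re-centring and 0 without the 2 farthest pigs, with the mean of all probe sets or with the control difference as covariate, and the 476 genes called became 1269, 231 and 308 under the first 3 of these. For heat shock, the first component as covariate gave 5 factors higher, 0 lower and 300 genes in place of 16, 3 and 2263, and 1 fell without the 2 farthest pigs. For oxidative phosphorylation, 1 factor rose after re-centring, 1 fell with no filter, after re-centring or with the control difference, and 361 genes were called in place of 577 without the 2 farthest pigs. The control difference kept 3 lower factors in place of 7 without those pigs. For interferon, re-centring gave 2 lower factors and 201 genes in place of 103, and 53 and 51 genes were called without the 2 farthest pigs and with the control difference. Of 39 calls of single factors, 259 alternative values were computed, of which 221 kept direction and call, 31 kept the direction only and 7 reversed, leaving aside the other EEF1A1 probe set.

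With the first component as covariate the heat shock slopes reversed for EIF3H (0.028), EIF2B2 (0.019), EIF4A1 (−0.072), EIF4EBP2 (0.076), EEF1E1 (−0.081) and EIF2S1 (−0.0089), and EIF4EBP2 did so when its probe sets were averaged (0.00051). The other EEF1A1 probe set reversed EEF1A1 on ribosomal proteins (0.026), heat shock (−0.119), the control difference (0.024) and interferon (0.029). Among pairs, EEF1B2 and EEF1G passed after re-centring (0.36), and EEF1G and EEF1D after re-centring (0.395), without the 2 farthest pigs (0.321) and given the first component (0.341). EIF4A1 and EIF4A2 reversed to −0.0856 (re-centred) and −0.239 (component), EIF4E and EIF4G1 to −0.053 and −0.178, EIF3D and EIF3M to −0.231 (mean of probe sets) and −0.171 (component), and EEF1A1 and EEF1B2 to 0.0923 (other probe set).

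Median pairwise r moved after re-centring to 0.107 over all factors, 0.138 for initiation genes, 0.576 for ribosomal protein followers and 0.745 for EIF3E, EIF3H and EIF3K. With the mean of all probe sets it was 0.022 for EIF4EBP2 with initiation genes, 0.182 for eIF3 and 0.116 for EIF3A, EIF3B, EIF3D and EIF3M. With the first component removed it was 0.191 for eIF3, 0.373 for eIF2B, 0.042 for heat shock followers, 0.063 between the followers of the 2 scores, 0.15 for EIF3A, EIF3B, EIF3D and EIF3M and −0.024 between the eIF3 sets. The cause of these changes was not tested.

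Leaving out each pig in turn gave 0 to 3 lower factors (pigs 57 and 19) and 340 to 573 genes for ribosomal proteins, 1 to 4 lower factors for heat shock (pigs 36 and 11), 1 to 4 lower factors and 375 to 642 genes for oxidative phosphorylation (pigs 21 or 72 and 36), and 0 to 2 lower factors (pig 47) and 59 to 148 genes (pigs 16 and 36) for interferon. EIF4E and EIF4G1 ran from −0.043 (pig 41) to 0.0508 (pig 57). Possible compression of signals near the top of the range and GCRMA's dim values limit what these arrays can show.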

Other observations

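Other lists of protein synthesis and its control gave these counts on the heat shock score. Of 17 aminoacyl-tRNA synthetase genes 8 rose and 0 fell by limma, led by NARS1 at 0.172 ± 0.026 log2 per SD and AARS1 at 0.168 ± 0.027. Of 7 mitochondrial translation factors 3 rose and 0 fell, the 56 ribosomal protein genes gave 1 higher and 3 lower calls, and the 13 translation genes without an EIF or EEF name gave 2 in each direction. Of 14 targets of ATF4, the transcription factor of the integrated stress response, 5 rose and 2 fell. The risers included CEBPG at 0.247 ± 0.039 and PPP1R15A, a phosphatase subunit that restores eIF2, at 0.248 ± 0.040, and PSAT1 fell by 0.255. Of 16 mTORC1 pathway genes 4 rose and 7 fell, with AKT2 at −0.144 ± 0.020 and SESN1 at −0.186 ± 0.037 among those that fell. In all genes 24.4% rose and 21.7% fell in this comparison. These genes were named after their values were seen.

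On the oxidative phosphorylation score 4 of 7 mitochondrial translation factors rose and 0 fell, with MRRF at 0.129 ± 0.021, TUFM at 0.125 ± 0.021 and GFM1 at 0.158 ± 0.026. Of all 4879 genes 9.06% rose, and of the 41 factors 0 rose, or 1 after re-centring. Of 9 tested muscle genes 1 rose and 1 fell on the same score, MYH7, the slow fibre myosin, at 0.080 ± 0.019 and TNNT3, a fast fibre troponin, at −0.045 ± 0.015. The list's other fast fibre genes, such as MYH2 and TNNC2, passed in neither direction.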
